A study of Mus musculus with 14 samples.

Results

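The fast and slow fibre-type genes are 10 genes that encode muscle proteins made in a fast and in a slow form. They were taken by symbol, and all 10 were found among the 55291 symbols counted. The 6 fast members were the myosin heavy chain genes Myh1, Myh2 and Myh4 and the troponin genes Tnnt3, Tnni2 and Tnnc2. The 4 slow members were Myh7, Tnnt1, Tnni1 and Tnnc1. Their levels give the mix of fast and slow forms in the RNA of the stroma of the mouse esophagus, not a count of fibres. Their levels in the peeled epithelium of the same mice served as background.

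Bulk RNA-Seq libraries were made from 14 samples of 9 C57BL/6 mice without any named allele or treatment. Stroma came from 3 aged mice (O1, O2 and O3) and 2 young mice (Y1 and Y3). Epithelium came from these 5 mice, from the aged mice OF5 and OM8 and from the young mice YF5 and YM4. In the paper, epithelium-enriched tissue was what remained once the muscle layer had been removed. The methods of the paper do not say how stroma was collected. The labels place aged mice at 18 months or more and young mice at 4 months or less, and give no sex. Total counts were 13257833 to 15644580 in stroma and 8217516 to 21867101 in epithelium. The 4 mice with epithelium only had 8217516 to 9399448 counts, of which 1042394 to 1433857 were protein coding. Epithelium of the other 5 mice had 16477424 to 21867101, of which 7971284 to 11067322 were protein coding. The factors that scale the library size were 0.256 to 0.506 and 1.29 to 1.75, so these libraries differed in make-up as well as depth. In CPM (counts scaled to the library size), 3 counts were worth 0.707 to 1.25 in those 4 mice. They were worth 0.0872 to 0.175 CPM in the 10 libraries of the other mice. Bulk RNA does not tell fewer muscle cells apart from less RNA per muscle cell. The labels name stroma as a whole and no muscle, so its 8 skeletal muscle markers (Acta1, Ckm, Ttn, Neb, Tcap, Des, Ldb3 and Actn2) were summed, and they gave 33820 to 64370 CPM in each stromal sample.

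A striated muscle fibre contracts when calcium binds troponin C, troponin I then releases the thin filament, troponin T holds the complex on tropomyosin, and the myosin heavy chain pulls. The myosin heavy chain sets the speed and names the fibre: Myh7 marks slow type I fibres, Myh2 fast type IIA, Myh1 fast type IIX and Myh4 the fastest type IIB. In rodents the muscle coat of the esophagus is largely striated, whereas the muscle of the gut below it is smooth.

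Promoter sequences of the myosin genes are shown first, because the fast myosin genes stand side by side on chromosome 11 in the annotation and carried nearly all myosin counts of the stroma, while Myh7 lies on chromosome 14. The sequences are from RefSeq on the build GRCm38.p6, 250 bases before the RefSeq start of each gene, on the strand of the gene. For Myh1 and Myh4 this start differs from the GENCODE start given with their values further on, and distances are counted from the RefSeq start. They are chr11:67199852-67200101 for Myh1, chr11:67170777-67171026 for Myh2, chr11:67237562-67237811 for Myh4 and chr11:67276874-67277123 for the perinatal myosin gene Myh8, all on the plus strand, and chr14:54994627-54994876 on the minus strand for Myh7. Capitals mark the longest run of bases that Myh1, Myh2 and Myh4 have in common, or, in Myh8, the part of it that this gene shares.
Myh1: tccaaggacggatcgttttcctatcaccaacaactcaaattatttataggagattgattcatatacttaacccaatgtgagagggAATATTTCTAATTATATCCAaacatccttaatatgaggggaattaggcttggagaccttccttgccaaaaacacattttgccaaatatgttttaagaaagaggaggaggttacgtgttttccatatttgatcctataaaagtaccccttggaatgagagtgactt
Myh2: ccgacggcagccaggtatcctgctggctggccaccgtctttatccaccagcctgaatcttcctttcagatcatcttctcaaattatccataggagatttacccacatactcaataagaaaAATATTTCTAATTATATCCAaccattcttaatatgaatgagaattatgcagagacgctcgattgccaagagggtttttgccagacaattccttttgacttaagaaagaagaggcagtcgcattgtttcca
Myh4: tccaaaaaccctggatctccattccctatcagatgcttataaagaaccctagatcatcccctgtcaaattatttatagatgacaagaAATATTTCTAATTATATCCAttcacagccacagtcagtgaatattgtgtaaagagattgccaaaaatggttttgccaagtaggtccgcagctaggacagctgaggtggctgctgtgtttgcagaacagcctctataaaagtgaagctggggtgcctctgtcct
Myh8: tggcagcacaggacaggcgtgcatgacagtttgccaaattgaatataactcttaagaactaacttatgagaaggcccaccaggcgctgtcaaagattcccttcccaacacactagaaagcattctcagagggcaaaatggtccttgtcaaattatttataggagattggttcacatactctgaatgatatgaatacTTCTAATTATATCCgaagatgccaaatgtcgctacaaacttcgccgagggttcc
Myh7: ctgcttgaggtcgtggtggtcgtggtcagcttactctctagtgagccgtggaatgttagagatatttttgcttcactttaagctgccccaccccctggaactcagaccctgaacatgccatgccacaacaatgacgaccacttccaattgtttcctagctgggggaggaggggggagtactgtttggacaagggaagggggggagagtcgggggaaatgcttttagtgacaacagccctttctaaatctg
The run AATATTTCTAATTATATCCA has 20 bases and began 165 bases before the RefSeq start of Myh1, 130 before Myh2 and 163 before Myh4. Among 32851 promoters of this length it occurred on either strand in 3 (0.00913%), those of Myh1, Myh2 and Myh4. The shorter run TTCTAATTATATCC lies inside it, has 14 bases, and occurred in 4 promoters (0.0122%), the fourth being Myh8, where it began 54 bases before the start. Myh7 had neither run in its window. The runs were found by comparing these sequences after the levels were known, and a shared run describes the sequences without naming a factor. Of the 10 members, 8 had an entry in the promoter table, and Tnnt3 and Tnni2 had none.

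The stroma held a fast type of muscle RNA in which Myh1 was the main adult myosin heavy chain. In the sum of Myh1, Myh2, Myh4 and Myh7, counted per kilobase (kb) of merged exon, Myh1 made up 81.3% ± 3.29 (SD, n = 5), Myh4 11.9% ± 2.71, Myh2 6.82% ± 1.05 and the slow Myh7 0.0635% ± 0.0577. Slow forms also held a small share of each troponin: Tnnt1 was 1.58% ± 0.696 of troponin T, Tnni1 0.183% ± 0.0646 of troponin I and Tnnc1 0.777% ± 0.653 of troponin C.

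Myh1 (ENSMUSG00000056328.14, chromosome 11, 67200052 to 67224575 in GRCm38) had 6205 CPM in O1, 4479 in O2, 3763 in O3, 5658 in Y1 and 3869 in Y3, on library sizes adjusted by the trimmed mean of M-values (TMM). The highest stromal sample was aged and the lowest was aged too, so the age groups overlapped. Myh2 (ENSMUSG00000033196.17, chromosome 11, 67171027 to 67197517), the type IIA gene, had 497.2 CPM in O1, 402.1 in O2, 414.5 in O3, 439.0 in Y1 and 447.1 in Y3. In CPM, Myh2 varied least of all members, 1.24-fold from the lowest to the highest sample. Myh4 (ENSMUSG00000057003.12, chromosome 11, 67238029 to 67260446), the type IIB gene, had 494.3 CPM in O1, 739.2 in O2, 539.6 in O3, 791.2 in Y1 and 651.3 in Y3. O1 thus had the lowest Myh4 of the 5 samples and, in CPM, the highest Myh1 and Myh2, and its Myh4 share of the 4 myosins was 7.28% against 12.1% to 13.9% in the other 4. All 3 genes are protein coding and lie on the plus strand.

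Myh7 (ENSMUSG00000053093.16, chromosome 14, 54970684 to 54994626, minus strand), the type I gene, had 1.46 CPM in O1, 5.63 in O2, 9.95 in O3, 1.45 in Y1 and 3.86 in Y3, from 25, 137, 260, 28 and 98 counts. O3 stood highest and O1 and Y1 lowest, a 6.88-fold range, and the age groups overlapped. Even in O3, the Myh1 level per kb was 513 times that of Myh7, and in O1 it was 5770 times. Myh7 exons overlap 3 other annotated genes over 1149 bases, and 15.6% of its stretches of 50 bases also occur in the cardiac gene Myh6, so that a part of its reads could be ambiguous.

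The myosin genes resemble each other in sequence, and reads that match several genes may have been divided or dropped. Of the stretches of 50 bases in Myh1, 25.4% recur in another listed gene, 18.7% in Myh2 and 9.19% in Myh8. The corresponding share was 22.9% for Myh2 and 18.9% for Myh4, and 0.0% for 5 of the 6 troponin members and 0.05% for Tnni1. Shared sequence thus touches the split between the fast myosins and hardly touches the troponins.

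Troponin T, the tropomyosin-binding subunit, was nearly all fast. Tnnt3 (ENSMUSG00000061723.18, chromosome 7, 142498836 to 142516009, plus strand) had 3154 CPM in O1, 2702 in O2, 2328 in O3, 2571 in Y1 and 2372 in Y3. The slow Tnnt1 (ENSMUSG00000064179.13, chromosome 7, 4504570 to 4516382, minus strand) had 48.5 CPM in O1, 100.7 in O2, 54.0 in O3, 28.9 in Y1 and 59.7 in Y3. Tnnt1 was the most abundant slow member in each stromal sample, and O2 was highest and Y1 lowest. Its share of troponin T ran from 0.801% in Y1 to 2.61% in O2, and the aged and young samples overlapped.

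Troponin I, the inhibitory subunit, was fast to an even larger degree. Tnni2 (ENSMUSG00000031097.15, chromosome 7, 142441808 to 142444410, plus strand) had 2329 CPM in O1, 1913 in O2, 1701 in O3, 2203 in Y1 and 1583 in Y3. The slow Tnni1 (ENSMUSG00000026418.16, chromosome 1, 135779434 to 135810989, plus strand) had 13.3 CPM in O1, 12.2 in O2, 4.78 in O3, 7.07 in Y1 and 6.19 in Y3. Tnni1 was lowest in O3, where Myh7 was highest, so the slow members did not share one order of samples. Without division by length the slow share of troponin I was 0.438%, because the merged exons of Tnni1 (3600 bases) are longer than those of Tnni2 (1497 bases).

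Troponin C, the calcium-binding subunit, was measured least well. Tnnc2 (ENSMUSG00000017300.9, chromosome 2, 164777161 to 164779967, minus strand) had 57.3 CPM in O1, 58.8 in O2, 35.7 in O3, 89.3 in Y1 and 47.1 in Y3. Its level per kb was 14.6 to 33.0 times lower than that of Tnnt3 in the same sample by merged exons, and 3.78 to 8.58 times lower by the exon bases of each gene free of other genes. Of its 800 exon bases, 592 (74.0%) overlap Ube2c, a gene of cell division on the other strand, which itself had 6 to 62 counts in stroma, and the sources used here do not say how reads in such an overlap were counted. The slow Tnnc1 (ENSMUSG00000091898.8, chromosome 14, 31208312 to 31211729, plus strand) had 0 counts in O1, 30 in O2, 13 in O3, 5 in Y1 and 16 in Y3, or 0.0 to 1.23 CPM. A count of 0 in O1 allows up to 0.175 CPM. With the free bases as length, a choice added after the overlap was seen, the slow share of troponin C falls to 0.204%.

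**Figure D1:**
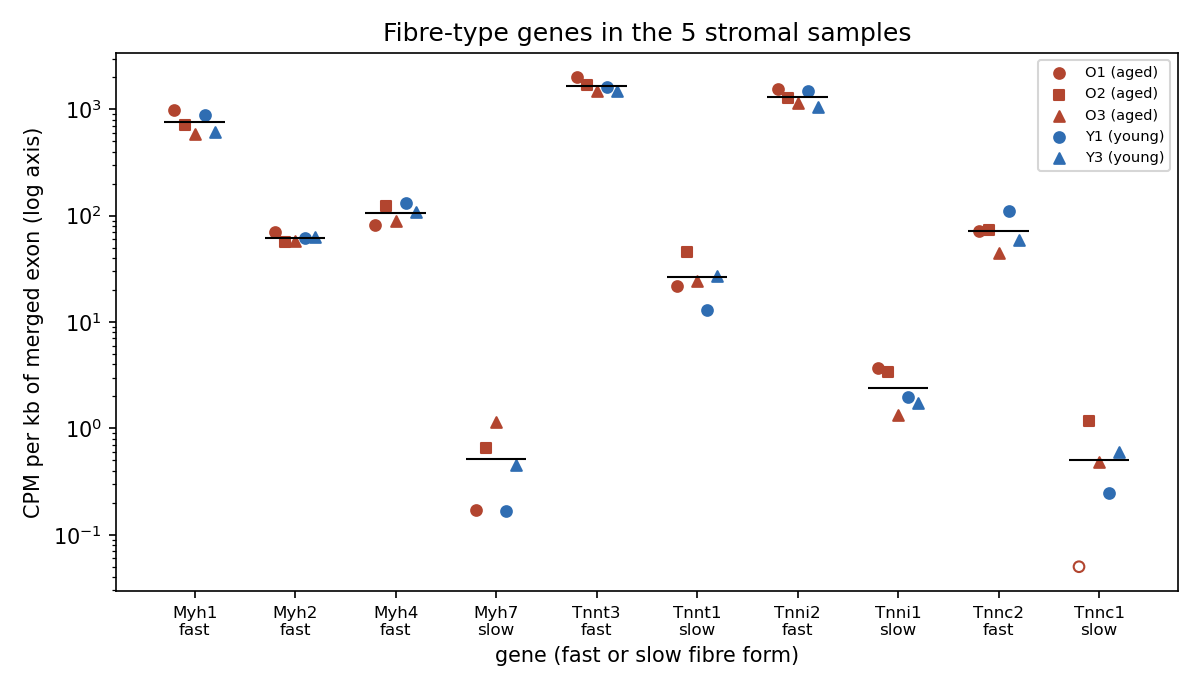
CPM per kb of merged exon (log axis) of the 10 fibre-type genes in the stroma of 3 aged (red) and 2 young (blue) mice, with a horizontal line at the mean of the 5 samples. Each fast gene lies above its slow partner in all 5 samples, and the open symbol at the bottom marks the count of 0 of Tnnc1 in O1.

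Ordered by mean level per kb, the members ran from Tnnt3 (1659 ± 209.8 CPM per kb, SD, n = 5) through Tnni2 (1300 ± 212.7), Myh1 (755 ± 172), Myh4 (107 ± 21.0), Tnnc2 (72.0 ± 25.0), Myh2 (61.7 ± 5.15), Tnnt1 (26.5 ± 12.0), Tnni1 (2.42 ± 1.05) and Myh7 (0.519 ± 0.410) to Tnnc1 (0.503 ± 0.445). Neighbours whose ranges overlapped were Tnnt3 and Tnni2, Myh4 and Tnnc2, Tnnc2 and Myh2, and Myh7 and Tnnc1. Within a sample, Tnnt3 was above Tnni2 and Myh4 above Tnnc2 in 5 of 5 samples. Tnnc2 was above Myh2 in 3 of 5 and Myh7 above Tnnc1 in 2 of 5, so these neighbours have no fixed order. The order also depended on the length used. By the exon bases free of other genes, Tnnc2 had 171.4 to 429.2 CPM per kb and stood above Myh4 and Myh2 in 5 of 5 samples, and by the longest transcript Tnnt3 was above Tnni2 in 4 of 5.

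The 4 named adult myosins were not the whole of the myosin RNA. Myh8, the perinatal myosin heavy chain (chromosome 11, 67277124 to 67308634, plus strand), had 7523 CPM in O1, 4760 in O2, 5425 in O3, 6562 in Y1 and 5678 in Y3. O1 was highest and O2 lowest, and the age groups overlapped. Per kb of merged exon it stood at 0.573 to 0.792 times Myh1 in the same sample, where its merged exons span 11772 bases against 6353 for Myh1. In the sum with 6 more myosin genes (Myh3, Myh8, Myh13, Myh15, Myh6 and Myh7b), Myh1 made up 51.4% ± 3.30 (SD, n = 5), Myh8 35.0% ± 2.87, Myh4 7.51% ± 1.81, Myh2 4.29% ± 0.520 and Myh7 0.0397% ± 0.0350. With the longest annotated transcript as length (6149 bases for Myh8 and 6081 for Myh1), Myh8 held 49.5% ± 3.15 and Myh1 39.8% ± 3.17, so which of both came first depended on the length used. Myh13, the extraocular form, held 1.44% ± 0.123 per kb of merged exon and the embryonic Myh3 0.273% ± 0.0917.

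**Figure D2:**
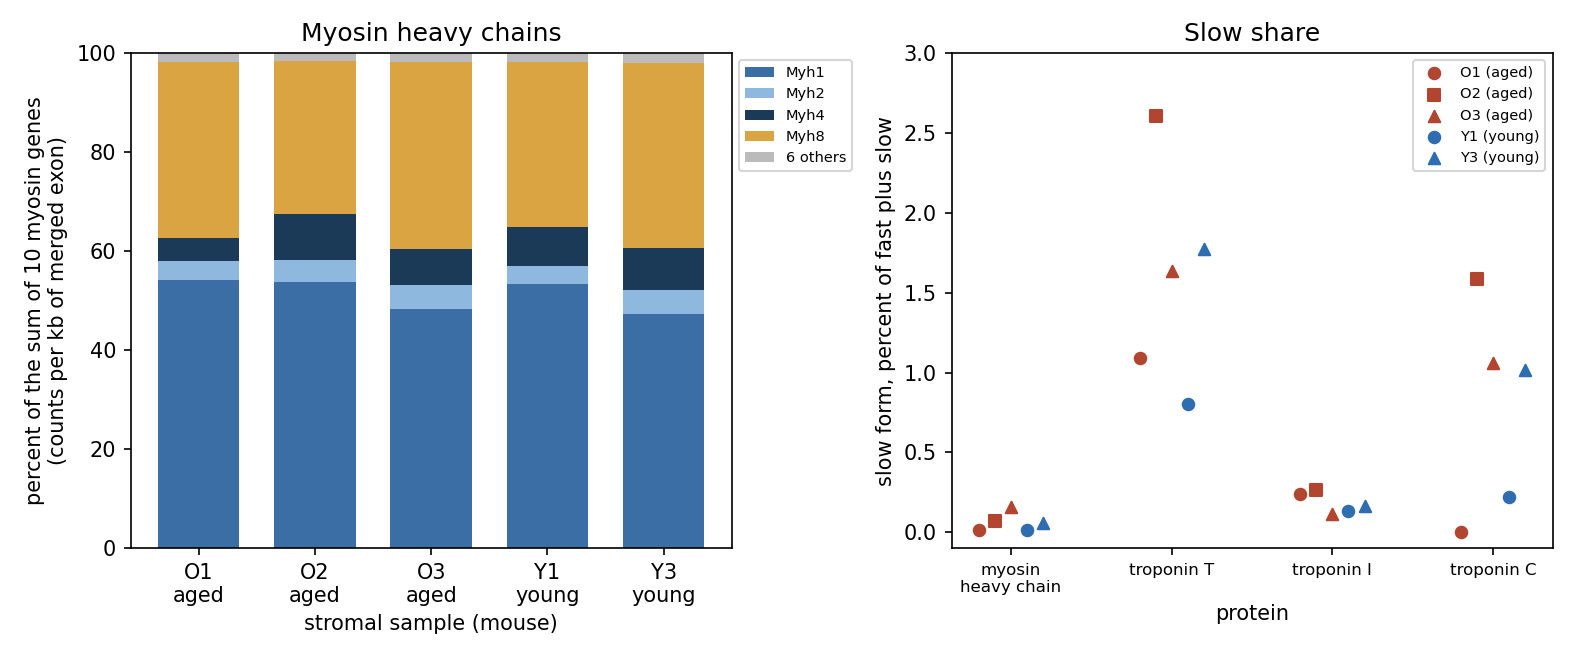
Left, stacked bars of the share of Myh1, Myh2, Myh4, Myh8 and 6 other genes in the sum of 10 myosin heavy chain genes, from counts per kb of merged exon, in each stromal sample. Right, the slow form as a percent of fast plus slow for myosin heavy chain (4 genes), troponin T, I and C, where all values lie between 0.0% and 2.61% and aged (red) and young (blue) points overlap.

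Other genes known for fast and slow fibres gave a less even picture. The fast regulatory light chain Mylpf had 751 ± 137 CPM per kb in stroma (SD, n = 5) and the fast light chain Myl1 199 ± 62.7. Of the slow list, the slow regulatory light chain Myl2 had only 0.595 ± 0.955 CPM per kb, with its highest value, 2.30, in O3, the sample with the highest Myh7. Myl3, the essential light chain of slow and ventricular muscle, had 444 ± 64.3 CPM per kb, between Mylpf and Myl1. Mybpc1, the slow type of myosin-binding protein C, had 100.6 ± 19.1 CPM per kb. The slow list thus held genes at the level of fast members beside genes near the level of Myh7.

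Against muscle as a whole, the members kept their proportions to a different degree. With the CPM of each gene set against the geometric mean of the 8 skeletal muscle markers, Myh1 was 217% to 260% of that mean, Myh2 19.1% to 27.8% and Myh4 19.0% to 37.3%. Myh1 thus varied less than Myh2 on this scale, unlike in CPM. O1 gave the 19.0% of Myh4, and the other 4 samples lay between 36.2% and 37.3%. Tnnt1 ran from 1.33% in Y1 to 5.08% in O2 and Myh7 from 0.0560% in O1 to 0.667% in O3. O1 thus stood apart for Myh4, and O3 for Myh7, on this scale as well. The place of O1 turned for the other fast myosins: it had the highest mean of the 8 markers (2605 CPM), and relative to it the lowest Myh2 of the 5 samples (19.1%) and a Myh1 in the middle (238.2%).

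Over all 14 samples, the genes most like Myh4 in log2(CPM + 0.5) were Myh8 (r = 0.986), Acta1 (r = 0.985) and Actc1 (r = 0.985). Acta1 and Actc1 encode the skeletal and cardiac forms of sarcomeric actin. For Myh7 they were Zfpm2 (r = 0.956), Tek (r = 0.954) and Gm45159 (r = 0.954). Tek encodes a receptor of blood vessel cells and Zfpm2 a cofactor of GATA factors. The samples share their layer and depth, which alone separates high from low values, so the coefficients are descriptions.

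Next, aged stroma was compared with young stroma to ask whether the mix of fast and slow RNA differed with age. None of the 10 members was called by the quasi-likelihood test of edgeR at a Benjamini-Hochberg adjusted p of 0.05, and none had an unadjusted p under 0.05. The background was as low: of 21323 genes tested, 0.0% were called, 776 (3.64%) had an unadjusted p under 0.05, and DESeq2 called 2. All 10 members overlapped between the 3 aged and the 2 young samples, while 20.6% of all genes tested did not overlap. With 3 samples against 2, the intervals below were wide.

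The fast members had values near 0. The log2 fold change, aged over young, was 0.00 for Myh1 (95% interval -0.68 to 0.69), -0.03 for Myh2 (-0.53 to 0.48), -0.29 for Myh4 (-0.88 to 0.30), 0.13 for Tnnt3 (-0.43 to 0.70), 0.06 for Tnni2 (-0.54 to 0.66) and -0.44 for Tnnc2 (-1.18 to 0.30). Their median was -0.01 beside -0.01 over all genes tested, with 3 positive and 3 negative values. Myh1, Myh2 and Tnni2 changed sign under other processing or without single samples, and Tnnc2 became 0.08 without Y1. Except for Tnnc2, the intervals stayed within a change of 1 on the log2 scale in either direction.

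The 4 slow members all had positive values, none of them called. The log2 fold change was 1.10 for Myh7 (95% interval -0.80 to 2.99, unadjusted p = 0.226, adjusted p = 1.0 by edgeR), 0.61 for Tnnt1 (-0.29 to 1.51), 0.59 for Tnni1 (-0.55 to 1.74) and 0.38 for Tnnc1 (-4.52 to 5.28). Single samples set the size: Myh7 was 0.39 without O3, 0.54 without Y1 and 1.95 without Y3, Tnnt1 was 0.17 without O2, 0.16 without Y1 and 1.20 without Y3, and Tnni1 ran from 0.36 without O1 to 0.91 without O3. The median of the 4 slow members over all samples was 0.60 beside -0.01 over all genes tested. For Myh7, the samples O2 and O3 exceeded both young samples and O1 lay at the level of Y1. Tnnt1 in O1 lay below that in the young sample Y3, and Tnni1 in O3 was the lowest of all 5. The direction of Tnnc1 turned when O2 or Y1 was left out, with a range of -0.82 to 1.13 over the samples left out in turn.

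The shares within each protein were then compared. The mean share of Myh1 among the 4 myosins was 82.0% in aged and 80.1% in young stroma, a difference of 1.93 percentage points beside an SD of 3.29 over the 5 samples. Myh4 differed by -1.92 points (11.1% and 13.0%), which shrank to -0.01 points without O1. Myh2 differed by -0.0594 points, and by -1.24 without Y1 and 1.12 without Y3. The slow share of troponin T was 1.78% in aged and 1.29% in young stroma, and the difference of 0.491 points was 0.00359 without Y1 and 0.978 without Y3. For Myh7 the shares were 0.0815% and 0.0365%, and the difference of 0.0451 points ran from 0.00796 without O3 to 0.0783 without O1. For the slow form of troponin I they were 0.206% and 0.148%, with a difference of 0.0291 to 0.103 points over the samples left out. For troponin C they were 0.882% and 0.620%, and the difference of 0.262 points turned to -0.136 without Y1 and -0.0898 without O2, and rose to 0.703 without O1. With no sample left out, none of these differences exceeded 1 SD over the 5 samples. That SD pools both ages and so contains the difference itself. Without single samples larger differences arose, such as the 0.978 points of troponin T beside its SD of 0.696.

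**Figure D3:**
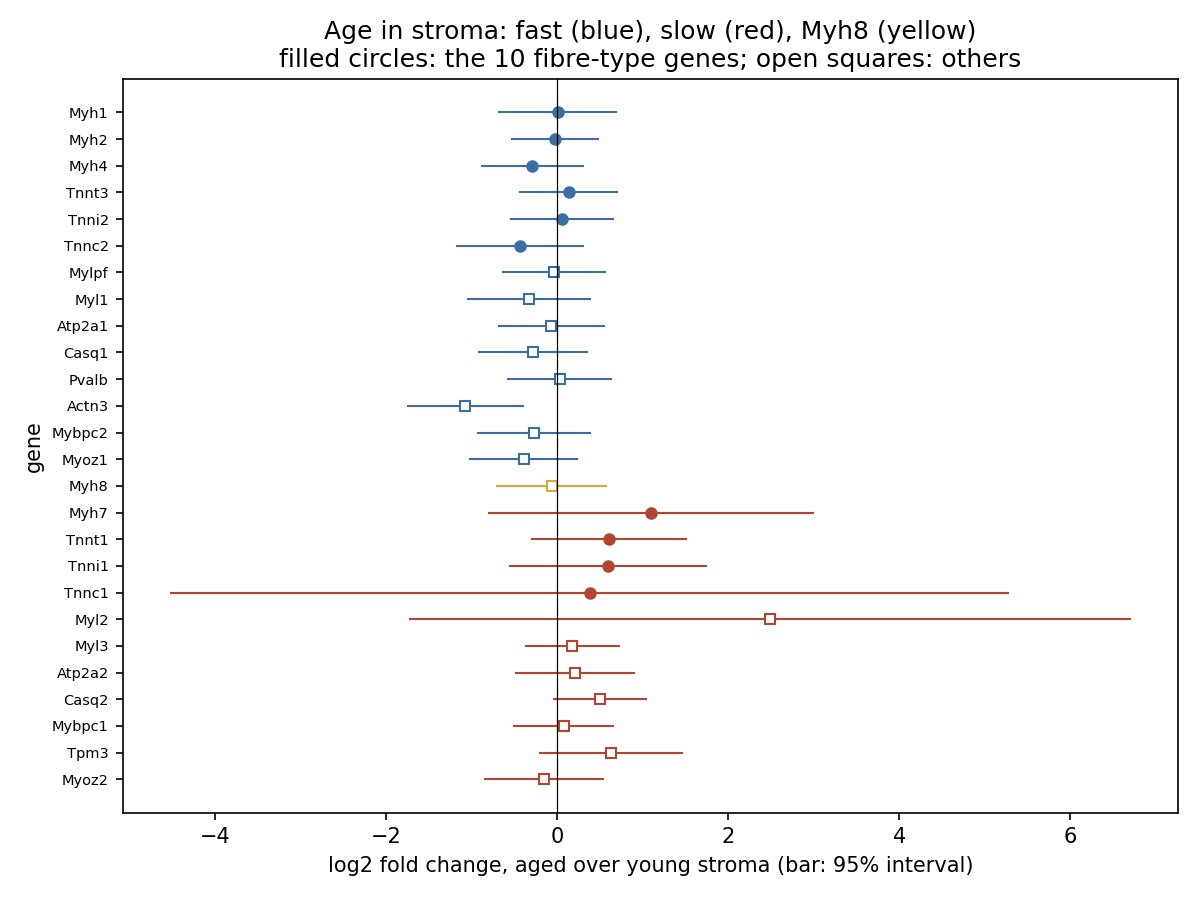
Log2 fold change of aged over young stroma with its 95% interval (bars) for the 10 fibre-type genes (filled circles) and for Myh8 and other genes of fast and slow fibres (open squares), fast in blue, slow in red, Myh8 in yellow. All intervals of the filled circles span 0, and Actn3 is the gene whose interval lies below 0.

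Among the 8 other fast genes none was called, 7 had negative values, and the median was -0.28. By the highest level in stroma, Atp2a1, the fast calcium pump, had -0.07 (standard error 0.28), Mylpf -0.04 (0.27), Mybpc2 -0.28 (0.29) and Myl1 -0.33 (0.32). Actn3, the alpha-actinin of fast fibres, is named here after its values were seen. It had 369.6 CPM in O1, 217.4 in O2, 181.9 in O3, 544.2 in Y1 and 527.6 in Y3, so that all aged samples lay below both young ones (20.6% of all genes tested had no overlap in one direction or the other). Its log2 fold change was -1.08 (standard error 0.30, unadjusted p = 0.00522, adjusted p = 1.0 by edgeR). Without the filter on low counts the adjusted p was 0.00385 by edgeR. With the number in the mouse code as a block it was 0.0128. Stromal samples of the same number share only that number and O2 has no young partner, so this block is no true pairing. The adjusted p stayed above 0.05 in the other alternatives.

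Of the 7 other slow genes, 6 had positive values and none was called, with a median of 0.21. Myl3 had 0.18 (standard error 0.24), Mybpc1 0.08 (0.26), Atp2a2, the slow calcium pump that other cells also use, 0.21 (0.31), and Tpm3 0.63 (0.37). The negative value was that of Myoz2, -0.15 (0.31). Casq2, the calcium store protein of slow and cardiac muscle, is named after its values were seen. It had 56.1 CPM in O1, 55.1 in O2, 46.4 in O3, 35.7 in Y1 and 38.1 in Y3. The groups did not overlap (20.6% of all genes tested had no overlap in one direction or the other). The log2 fold change of Casq2 was 0.50 (standard error 0.24, unadjusted p = 0.0628, adjusted p = 1.0 by edgeR). Myh8 had -0.06 (0.28) and overlapped between the groups.

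Markers of other tissues differed between the same samples. The sum of 5 smooth muscle markers (Myh11, Acta2, Cnn1, Tagln and Smtn) was 815.6 to 2051 CPM in aged and 302.6 to 599.9 in young stroma, and all 5 had positive values, none called. The sum of 6 epithelial markers was 50.4 to 441.3 CPM in aged and 44.4 to 72.6 in young stroma, that of 5 adipocyte markers 134.8 to 310.9 and 179.3 to 713, and that of 7 cardiac markers 32.7 to 80.9 and 35.6 to 50.2. No defining smooth muscle, epithelial or adipocyte marker was at 0 in all samples of a stromal group, and the cardiac Nppa was at 0 in all aged stroma. O2, with the highest Tnnt1, also had the highest smooth muscle and epithelial sums, while O3, with the highest Myh7, had the lowest cardiac sum and by far the highest sum of 4 B and plasma cell markers (2146 CPM against 34.3 to 242.8 in the other 4 samples). The part of these cells in the slow values was not tested. The number of genes detected was 20115 to 25497 in aged and 34224 to 41308 in young stroma, and the share of counts from mitochondrially encoded genes was 26.1% in O1, 17.8% in O2, 15.5% in O3, 27.9% in Y1 and 22.5% in Y3. This share ran in the reverse order of Myh7 over the 5 samples. The part of either in the values of the members was not tested.

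Finally, peeled epithelium gave the background. Of the 10 members, 9 passed the filter on low counts over the 14 samples, and all 9 fell in epithelium against stroma, beside 30.1% of 16791 genes tested that were lower and 56.2% called in either direction. None of the 9 overlapped between layers, against 16.9% of genes tested that were lower without overlap. For Myh7 the gap was narrow, with 1.414 CPM in the epithelium of OM8, from 6 counts, beside 1.445 CPM in the stroma of Y1. Tnnc1 did not pass the filter, and had 0 to 4 counts per epithelial sample. Tnnc2, Myh7 and Tnnt1 had at most 26, 20 and 23 counts per epithelial sample and did not pass the filter in epithelium alone. They entered this comparison through their stromal counts, so that their fall was in part set by the filter. The log2 fold change, epithelium over stroma, was -6.14 for Myh1 (standard error 0.97), -6.62 for Myh2 (0.69), -5.03 for Myh4 (0.89), -6.29 for Tnnt3 (0.98), -6.43 for Tnni2 (0.63) and -6.97 for Tnnc2 (0.41), with adjusted p from 8.08e-11 to 0.00027 by edgeR. The median of the fast members was -6.36 beside -0.05 over all genes tested.

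The slow members split. Tnnt1 had -7.07 (standard error 0.40, adjusted p = 4.39e-11 by edgeR), as steep as the fast members, while Myh7 had -3.57 (0.61, adjusted p = 4.72e-05) and Tnni1 -2.82 (0.32, adjusted p = 2.48e-07). Of the other genes, 8 of 8 fast ones fell, with values from -6.77 to -5.91, and 5 of 6 tested slow ones, among them Myoz2 at -7.22 and Myl3 at -6.69. Atp2a2 had -0.47 (adjusted p = 0.057) and was not called. All 6 other myosin genes fell, from Myh3 at -6.14 and Myh8 at -5.68 to Myh7b at -2.03. The epithelial samples also held smooth muscle and fibroblast RNA. The sum of 5 smooth muscle markers averaged 564.1 CPM in aged and 572.1 in young epithelium, beside 1269 and 451.3 in stroma. That of 6 fibroblast markers averaged 400.0 and 546.6, beside 773.1 and 725.3. The part of these cells in the epithelial values of the members was not tested.

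Set against the stroma of the same mouse, epithelium of the 5 mice with both layers had a low level of each fast member. The source of this RNA was not tested. Myh1 was 0.833% of its stromal CPM in O1, 0.476% in O2, 4.32% in O3, 0.812% in Y1 and 2.27% in Y3. O3 and Y3 stood high for all 6 fast members, with medians over the mice of 0.580% for Tnni2, 0.603% for Tnnt3, 0.678% for Myh2, 0.760% for Tnnc2 and 2.73% for Myh4. Myh7 was 27.9% in O1, 5.38% in O2, 1.25% in O3, 17.2% in Y1 and 16.9% in Y3, from 3 to 20 counts in epithelium. Tnni1 was 6.56% to 27.0%, from 23 to 51 counts. Tnnt1 stayed at 0.151% to 1.77%. The slow share of troponin I was thus higher in epithelium than in stroma in 5 of 5 mice, at 0.725% to 4.37%. The slow share of the 4 myosins was higher in 4 of 5 mice, and that of troponin T in 2 of 5. For troponin C, the epithelium of O1, O2 and Y1 had too few counts for a share.

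**Figure D4:**
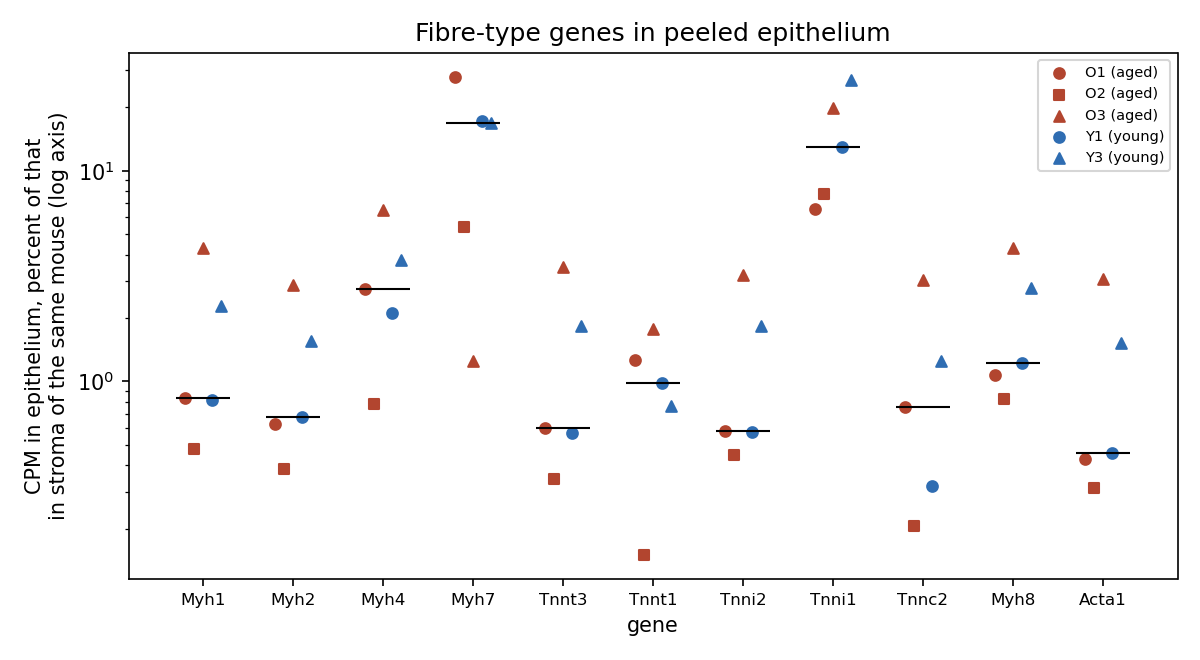
CPM in peeled epithelium as a percent of that in stroma of the same mouse (log axis), for 9 fibre-type genes, Myh8 and Acta1, in 5 mice (aged red, young blue), with a line at the median. Most genes lie near 1%, Myh7 and Tnni1 have medians of 16.9% and 13.0%, and Myh4 lies above Myh1 and Myh2 in each mouse.

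The fast myosin RNA found in epithelium had another mix than that of the stroma. Myh4 made up 17.7% to 26.6% of the 4 myosins in epithelium of the 5 mice and was above the stroma of the same mouse in 5 of 5, while the shares of Myh1 and Myh2 were below it in 5 of 5. In O1, Myh4 was 20.7% in epithelium and 7.28% in stroma. YF5 had a Myh4 share of 26.2% from 193 counts, YM4 one of 33.3% from 9 counts and OM8 one of 4.80% from 2 counts. The Myh7 share was 10.1% in OM8, from 6 counts, and 0.0% in YF5 and YM4. The slow share of troponin I was 1.47% in YF5, 8.46% in YM4, 9.42% in OF5 and 10.2% in OM8, from 4 to 6 counts of Tnni1. The mice without stroma spanned the whole range of epithelial Myh1, with 549 counts in YF5 (228.8 CPM), 33 in OM8, 19 in YM4 and 0 in OF5. The count of 0 in OF5 allows up to 1.03 CPM, and the same library had 16 counts of Tnni2.

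Age was also compared in epithelium as background. Of 6 members tested by edgeR, none was called, beside 0.0132% of 15107 genes tested, and none had an unadjusted p under 0.05, beside 3.36% of genes. DESeq2 called none of the 6 either. All 6 values were negative, from -1.56 for Myh1 (standard error 1.67) to -0.48 for Myh2 (1.12), with adjusted p = 0.999 by edgeR, and the groups overlapped for each. Without YF5, the epithelial library with the highest Myh1, Myh1 moved to 0.09, Myh2 to 0.19, Tnnt3 to 0.34 and Tnni2 to 0.18. The age effect in stroma minus that in epithelium, tested as an interaction in the 5 mice with both layers, was called for none of the 10 members and for 0.0% of 22771 genes (979, or 4.3%, at an unadjusted p under 0.05, and 62 by DESeq2). It was 1.76 for Myh7 (standard error 1.22), 1.08 for Tnni1 (0.68) and -0.20 for Myh1 (0.91).

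The 12 regulators of fibre type were read beside the members. In epithelium 11 of 12 fell against stroma, among them Tbx15 (-6.18), Mef2c (-6.00), the fast-fibre factor Six4 (-5.45) and its cofactor Eya1 (-4.79), Nfatc1 (-2.57), which carries calcium signals to slow genes, and Ppargc1a (-4.12), a coactivator of mitochondrial genes. Sox6, a repressor of slow genes, had -0.47 (adjusted p = 0.0936) and was not called. With age in stroma none of the 12 was called, 6 values were positive and 6 negative, and the median was 0.03. Mef2c had -0.02 (standard error 0.29), Tbx15 0.08 (0.26), Sox6 -0.20 (0.36) and Nfatc1 0.36 (0.35).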

How the data were processed

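Fast and slow fibre-type genes were measured in 14 bulk RNA-Seq samples, 9 of epithelium and 5 of stroma, grouped by layer and age from the labels; no sample was left out. Messenger RNA was selected with oligo(dT). The authors aligned reads to GRCm38.p6 with Rsubread and deposited counts per gene from featureCounts, as whole numbers without normalization. The annotation release, strand setting and treatment of reads matching several genes are not given in the sources used here. Positions and exon lengths came from GENCODE M21, which holds 53292 of the 55291 symbols.

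The tool for testing counts was edgeR 4.0.16 under R 4.3.3 (normalization by TMM, filterByExpr with a minimum count of 10, robust glmQLFit, glmQLFTest, Benjamini-Hochberg adjustment over all genes tested, threshold 0.05). The standard error was the log2 fold change divided by the square root of F. The layer comparison used all 14 samples and no covariate. The age comparison used the 5 stromal samples, then the 9 epithelial ones with a term for the form of the mouse's code (letter and number, or 2 letters and number), and an interaction of age and layer used the 10 samples of 5 mice. Filters kept 16791, 21323, 15107 and 22771 genes. Shares used counts per kb of merged exon and carry no test; a share was given only from at least 20 counts. Counts of 3 were taken as the floor, which covers counting error only. Every one of 20 pairs of samples of a group differed beyond sampling noise. The 5 mice with both layers are paired by their code (r of the deviations of both layers 0.0422 to 0.141), whereas the stromal samples with the same number share only that number.

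The members and lists were chosen with earlier results of these data known. All 10 members are named, and other genes where they pass the test or, with 3 or fewer passing, up to 4 of highest level in stroma, and the 3 genes most like Myh4 and Myh7. The alternatives were DESeq2 1.42.0, upper quartile normalization, muscle-reference scaling, other filters, genes in the library size, covariates, blocks, lengths, and each mouse left out. The procedure was tested on simulated data. The values of 1 gene in the list of regulators are not reported here.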

Additional observations from a re-analysis of the deposited data

Results flagged for a closer look

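Tnnc1, the slow troponin C gene, was flagged in 1 library of young epithelium. The sample of Y3 had a log2(CPM + 0.5) of -0.665 from 4 counts, while the other 3 young epithelial samples had 0 counts and a value of -1.0. The gap to the other samples took up the whole range of the group, above Dixon's critical value for 4 samples. Since the other 3 were tied at 0 counts, any count in Y3 would have given this result. The usual chance rate of the rule does not hold for tied values, and a value made of 4 counts is near the floor of 3 counts. The 4 counts of Y3 were 0.131 CPM, while a count of 0 allows up to 1.25 CPM in YF5 and 1.04 in YM4. Y3 was thus not shown to differ from them.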

How the results depend on the processing

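The members called lower in epithelium were 9 in every alternative but 2: without a filter on low counts 10 of 10 were tested and called, and with at least 10 counts in every sample 1 was tested and called. Without each mouse in turn the count was 9 throughout. With mouse as a replicate block it was 9. No member was called for age in stroma, in epithelium or in the interaction under any alternative, blocks included, or without any mouse.

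Signs turned near 0. In stroma by age, Myh2 became 0.00572 with DESeq2, Myh1 -0.0566 and Tnni2 -0.0109 with upper quartile normalization, and Myh1 -0.00499 without a filter and -0.0268 with at least 10 counts in every sample. With the number as a replicate block, Myh2 became 0.0200, Myh8 0.0503 and Tnnc1 -1.99. In epithelium by age, the 5 mice with both layers gave 0.227 for Myh1, 0.115 for Myh2, 0.323 for Tnnt3 and 0.269 for Tnni2. In the interaction, Myh8 became 0.00375 with DESeq2, and Tnnt1 -0.0114 with upper quartile normalization. Without a filter, Myh2 became 0.0419, Myh4 0.118 and Myh8 0.150. With mitochondrial and ribosomal RNA loci left out, Myh4 became 0.00744 and Myh8 0.0546. With mouse as a replicate block, Myh1 became 0.216, Myh2 0.219, Myh4 0.194, Tnnt3 0.222, Tnni2 0.168 and Myh8 0.254. The cause was not tested.

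Leaving out stromal samples in turn gave -0.268 to 0.285 for Myh1, -0.187 to 0.295 for Tnni2, -0.852 to 0.0761 for Tnnc2, -0.824 to 1.13 for Tnnc1 and -0.261 to 0.0350 for Myh8. In epithelium the ranges were -2.70 to 0.0921 for Myh1, -1.53 to 0.188 for Myh2, -2.25 to 0.338 for Tnnt3 and -1.59 to 0.178 for Tnni2. In the interaction they were -0.953 to 1.0 for Myh1, -0.826 to 1.08 for Myh2, -0.652 to 0.845 for Myh4, -1.19 to 1.25 for Tnnt3, -1.10 to 1.05 for Tnni2, -1.63 to 0.375 for Tnnc2, -0.747 to 0.687 for Tnnt1, -1.68 to 2.0 for Tnnc1, -1.14 to 0.992 for Actn3 and -0.654 to 0.960 for Myh8.

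Over all genes, age in stroma gave 0 calls with edgeR, 2 with DESeq2, 26 without a filter, 14 with the number as a replicate block, 13 without Y1 and 7 without Y3. Age in epithelium gave 2, and 28 with DESeq2, 36 without a filter, 4 in the 5 mice, 0 without the term for the form of the mouse code, 1 without O1 and 0 without Y1. The interaction gave 0, and 62 with DESeq2 and 98 without a filter. Epithelium against stroma gave 9441, and 4316 with at least 10 counts in every sample, where 6711 genes were tested.

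With the 6 other myosins in the sum, the shares of Myh1, Myh2 and Myh4 became 51.4%, 4.29% and 7.51%. Without division by length, the slow share of troponin I became 0.438% and its difference by age 0.139 points. The difference of Myh2 between ages ran from -1.24 to 1.12 points over the samples left out. Depth limits Tnnc1, with 0 to 30 counts per stromal sample, and Myh7, with 25 to 260.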
